A study of Mus musculus with 12 samples.

Results

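The fatty acid oxidation enzymes described here are 9 genes: Cpt2, Acadl, Acadm, Acads, Acadvl, Acaa2, Acaa1b, Hadh and Ehhadh. They were taken from the 8251 genes that the platform annotation names with a single symbol, and all 13 probe sets that name only one of them were read. The measurements are Affymetrix array intensities of total RNA from perigonadal fat, with 1 array per mouse and 12 arrays in all. By their labels the mice of all 4 groups were female, were 6 months old and had food ad libitum. Overexpressor mice (3 arrays) carried a Glut4 transgene driven by the aP2 promoter and were set against 3 FVB littermate controls without it. Adipose Glut4-/- knockout mice (3 arrays) were set against 3 controls that carry the aP2-Cre transgene, and both of these groups are on a mixed C57B6/FVB/SV129 background. The aP2 promoter is that of Fabp4, a lipid-binding protein gene of adipocytes that macrophages are also known to express. No founder line or Cre specificity was given in the sources used here.

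Fatty acids are burnt in mitochondria by a repeating cycle of oxidation, hydration, oxidation and cleavage, which shortens the chain step by step and releases acetyl-CoA. Long chains first cross the inner mitochondrial membrane as carnitine esters, and peroxisomes run a parallel cycle with their own enzymes. White adipocytes mostly store fat and oxidise little of it, whereas brown adipocytes oxidise fatty acids for heat, so the enzymes are known for their high levels in brown fat. Glut4, encoded by Slc2a4, brings glucose into adipocytes in response to insulin, and the question behind the series is what follows in fat from having more or less of it.

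The deposited intensities of the overexpressor line and of the knockout line have different smallest values, 21.9 on each of the 6 arrays of the first and 22.27 on each of the 6 of the second, so levels were compared only within a line. Array medians lay between 186 and 219, the lowest being overexpressor 1 and knockout control 3. The tested Slc2a4 probe set read 625, 1109.7 and 1042 in overexpressors, against 639, 583 and 1212 in their controls (log2 fold change 0.22, limma adjusted p = 0.930). It read 378, 365 and 363 in knockouts, against 416, 514 and 614 in their controls (-0.43, adjusted p = 1). The knockouts all lay below their controls, as they did for 113 of the 5707 named genes that were tested. Neither comparison passed the test, so this probe set checks neither set of labels. A second Slc2a4 probe set lay between 21.9 and 33.2 on all 12 arrays and was left out of the test as too dim. Of 9 adipocyte markers 8 were named on the array, Adipoq, Lep and Lpl among them, and all 8 passed the filter on dim probe sets, with summed intensities of 22958 to 30899 over the 12 arrays.

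Promoter sequence is shown for the 3 genes that stood nearest to the threshold in either comparison, Acadm, Cpt2 and Acadl. RefSeq windows were found for 8 of the 9 genes, each covering the 250 bases before the annotated start on build GRCm38.p6. Capitals mark 4 motifs searched on both strands: AGGTCA, the single site bound by nuclear receptors; AGGTCA, any base and AGGTCA again, the direct repeat which PPAR receptors bind and which contains the single site; GCATGCGC, a core of the NRF1 site; and GGGCGG, the GC box. All 3 genes lie on the minus strand and the sequences run 5′ to 3′ along the gene. The windows are chr3:153944644-153944893 for Acadm, chr4:107923590-107923839 for Cpt2 and chr1:66863310-66863559 for Acadl.
Acadm: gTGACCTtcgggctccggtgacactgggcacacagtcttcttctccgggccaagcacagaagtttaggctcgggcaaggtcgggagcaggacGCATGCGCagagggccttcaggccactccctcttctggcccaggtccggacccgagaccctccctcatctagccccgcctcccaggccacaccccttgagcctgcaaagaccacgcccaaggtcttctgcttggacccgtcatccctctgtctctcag
Cpt2: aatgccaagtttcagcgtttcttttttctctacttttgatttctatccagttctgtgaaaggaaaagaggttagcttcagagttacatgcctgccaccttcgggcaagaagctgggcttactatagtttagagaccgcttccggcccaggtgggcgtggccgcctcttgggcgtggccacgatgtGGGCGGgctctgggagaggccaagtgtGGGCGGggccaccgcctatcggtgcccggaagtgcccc
Acadl: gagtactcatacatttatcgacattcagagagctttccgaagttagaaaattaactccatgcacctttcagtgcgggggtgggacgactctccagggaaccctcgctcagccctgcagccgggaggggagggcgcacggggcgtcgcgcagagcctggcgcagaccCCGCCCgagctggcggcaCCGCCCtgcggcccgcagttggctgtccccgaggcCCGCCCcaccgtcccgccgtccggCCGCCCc
The Acadm window holds 1 single site and 1 NRF1 core, the Cpt2 window 2 GC boxes and the Acadl window 4, the last all on the opposite strand. Of the 8 windows, 5 hold a GC box (32.7% of 32851 windows of all genes), 2 a single site (14%), 1 an NRF1 core (2.26%) and 0 the full direct repeat (0.0335%). Such matches describe the letters of these windows only.

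Each array value was transformed as log2(intensity + 36.92), and log2 fold changes below are on that scale, which understates the change of dim probe sets. The tests are limma's, on group means of all 12 arrays, with p-values adjusted by Benjamini-Hochberg over 7454 probe sets. The other 4968 probe sets, those with the lowest mean over 12 arrays, were not tested. Of the 13 probe sets of the enzymes, 8 were tested, and they represent 7 genes, while Acadvl and Ehhadh were too dim. Each group holds 3 mice. The p-values set each change against a spread between mice that is pooled over all 4 groups. That spread is drawn towards the spread of probe sets of similar intensity.

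In fat of the overexpressors the enzyme genes had estimates below their controls for all 7 tested genes, by up to 0.49 on the log2 scale, and no gene passed the test. Of the 2 genes too dim to test, Ehhadh was below and Acadvl above. The fold changes were -0.49 for Cpt2, -0.37 for Acaa1b, -0.33 for Acaa2, -0.29 for Acadl, -0.25 for Acadm, -0.13 for Hadh and -0.12 for Acads. None of the 7 tested genes was called by limma at an adjusted p of 0.05, a call made for 0.0805% of all tested probe sets (2 higher and 4 lower, or 6 higher and 5 lower with array medians subtracted). At an unadjusted p under 0.05, Cpt2 alone was lower (limma unadjusted p = 0.0487), as were 3.53% of all probe sets. The count was 0 with array medians subtracted, 0 with quantile normalization within the line and 3 without overexpressor 2. The median over the 7 tested genes was -0.29, against -0.08 over all 5707 named genes tested. With the 2 dim genes, which are hardly measured, it was -0.25 over 9 genes, against -0.06 over all 8251 named genes. Negative estimates were general in this line: 70.3% of all tested probe sets had one, and 53.8% with array medians subtracted or 48.2% with quantile normalization within the line. All 7 tested genes kept a negative estimate under both, and the median over the 9 genes was then -0.19 and -0.22.

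Much of that position came from 1 array. Without overexpressor 1 the median over the 9 genes was -0.04, with -0.20 for Cpt2, -0.20 for Acaa2, -0.30 for Acaa1b, -0.03 for Acadl, -0.04 for Acadm, -0.02 for Hadh and 0.05 for Acads. The median over all named genes was then -0.02. Other arrays moved estimates the other way: Acadl was at -0.54 without overexpressor 2, and Hadh at -0.25 and Acads at -0.22 without overexpressor control 1.

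Fat of the knockouts had estimates above its controls for all 7 tested enzyme genes, by up to 0.45 on the log2 scale, again with no gene past the test. Of the 2 dim genes, Ehhadh was above and Acadvl below. The fold changes were 0.45 for Acadl, 0.40 for Acadm, 0.38 for Acaa1b, 0.32 for Cpt2, 0.28 for Acaa2, 0.25 for Acads and 0.19 for Hadh. Limma called none of the 7 tested genes, against 0.121% of all tested probe sets (9 higher, 0 lower), and none had an unadjusted p under 0.05, as 3.98% of all probe sets did. Acadm (0.0539) and Acadl (0.0662) had the smallest unadjusted p-values of limma. The number of genes under 0.05 was 0 with array medians subtracted and 1 with quantile normalization. It was 2 on the line's own 6 arrays and 3 without knockout control 2. The median over the 7 tested genes was 0.32, against 0.045 over all named genes tested, with positive estimates for 63% of tested probe sets. Over all 9 genes it was 0.30, which is the value of the dim gene Ehhadh, against 0.03 over all named genes. With array medians subtracted 51.9% of probe sets were positive, with quantile normalization 47.1%, and all 7 tested genes stayed positive under both, with medians over the 9 genes of 0.26 and 0.25. The median over 9 genes was 0.18 without knockout 3 and 0.41 without knockout control 2.

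**Figure D1:**
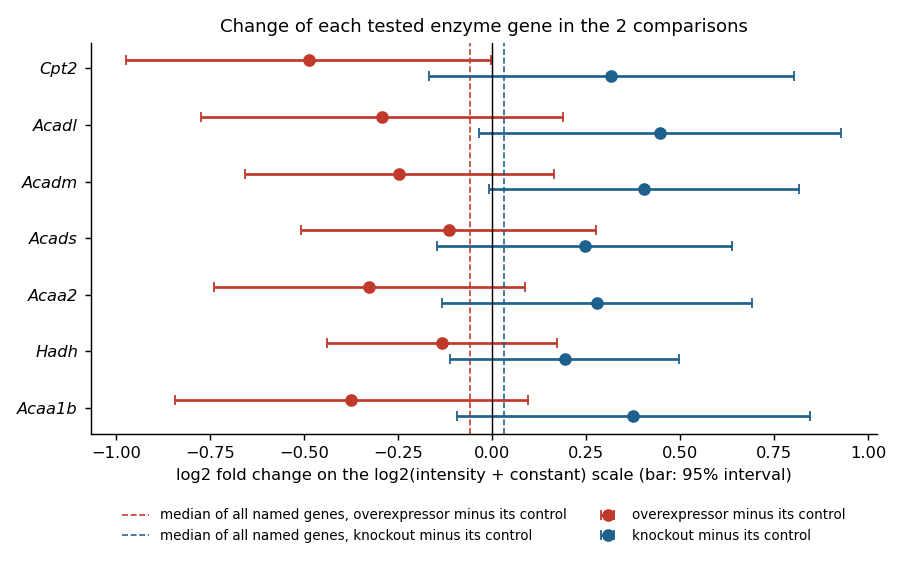
Log2 fold change (x axis, on the log2(intensity + constant) scale) of the 7 tested enzyme genes, with 95% intervals from limma; red points are overexpressor minus control, blue points knockout minus control, and dashed lines the median over all named genes in each comparison. All red points lie left of 0, from -0.49 to -0.12, and all blue points right of it, from 0.19 to 0.45; every blue interval spans 0, as does every red one but that of Cpt2, which ends at -0.0032.

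Entry of long chains into the mitochondrial cycle was represented by Cpt2, the inner membrane carnitine palmitoyltransferase that turns acylcarnitines back into acyl-CoA. Its intensity was 509, 1018 and 895 in overexpressors, against 901, 1167 and 1274 in their controls. Overexpressor 1 lay far below the other 5 arrays of its line, and overexpressor 2 lay above control 1, so the groups overlapped. The means were 807 ± 266 and 1114 ± 193 (SD, n = 3 each), with a log2 fold change of -0.49 (SE 0.22, 95% interval -0.97 to -0.0032, limma adjusted p = 0.913). In the knockout line the same probe set read 1318, 1454 and 1539 in knockouts, against 949, 1306 and 1208 in their controls. All 3 knockouts lay above all 3 controls, the nearest pair, knockout 1 and control 2, being 1318 and 1306. The change was 0.32 (SE 0.22, 95% interval -0.17 to 0.80, adjusted p = 1), and 0.19 without knockout control 1. A second Cpt2 probe set lay between 21.9 and 46.2 throughout and was left out of the test as too dim.

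The acyl-CoA dehydrogenases make the first double bond of each cycle, and each prefers a range of chain lengths. Acadl, the long-chain enzyme, read 169, 379 and 261 in overexpressors, against 261, 348 and 372 in their controls. Overexpressor 2 was the highest and overexpressor 1 the lowest of these 6 arrays. The change was -0.29 (SE 0.22, 95% interval -0.77 to 0.19, limma adjusted p = 0.913). Knockouts read 528, 541 and 657, against 338, 447 and 457 in their controls, and the groups did not overlap. Their means were 575 ± 70.9 and 414 ± 66.3 (SD, n = 3 each), a change of 0.45 (SE 0.22, 95% interval -0.03 to 0.93, adjusted p = 1). Cpt2 and Acadl were the 2 of the 7 tested genes whose knockouts all lay above their controls, which 5.62% of all tested probe sets also showed.

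Acadm, the medium-chain dehydrogenase, read 1349, 2066 and 2137 in overexpressors, against 1855, 2299 and 2358 in their controls. Overexpressors 2 and 3 lay within the range of the controls and overexpressor 1 below it (-0.25, SE 0.19, 95% interval -0.66 to 0.16, limma adjusted p = 0.913). In knockouts it read 2477, 2550.5 and 2949.65, against 1718, 2489.9 and 1855 in their controls. Control 2 lay between knockouts 1 and 2, while controls 1 and 3 lay well below all knockouts. Means were 2659 ± 254 and 2021 ± 412 (SD, n = 3 each), a change of 0.40 (SE 0.19, 95% interval -0.0079 to 0.82, adjusted p = 1). That value was 0.30 without knockout control 1 and 0.56 without knockout control 2.

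Acads, the short-chain dehydrogenase, had 2 tested probe sets that did not read alike. The one with the higher mean read 454, 673 and 627 in overexpressors, against 535, 621 and 745 in their controls (-0.12, SE 0.18). In knockouts it read 524, 678 and 724, against 439.5, 598 and 569 in their controls (0.25, SE 0.18). In both lines the groups overlapped and the intervals spanned 0, from -0.51 to 0.28 in overexpressors and from -0.15 to 0.64 in knockouts. The other probe set read 319.55, 326 and 328 in overexpressors, against 342, 292 and 369 in their controls, and its estimates were -0.03 and, for the knockouts, -0.06. The sign of the Acads estimate in the overexpressors turned without overexpressor 1 (0.05). In knockouts it was 0.12 without knockout control 1, 0.16 without knockout 3 and 0.38 without knockout 1.

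Acadvl, the very-long-chain dehydrogenase bound to the inner membrane, had the opposite signs by the first of its 2 probe sets only (0.19 and -0.07). Both were too dim to test. The first read 42.3, 31.8 and 36.5 in overexpressors, against 29.8, 30.75 and 23.0 in their controls, and 33.3, 25.4 and 35.7 in knockouts, against 34.0, 29.2 and 41.5 in theirs. The second stayed between 26.1 and 43.5 on all 12 arrays, with estimates of -0.004 in overexpressors and 0.0076 in knockouts. These values lie near the smallest intensities of the table and give no measure of the gene.

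Hadh is the mitochondrial dehydrogenase of the third step, which acts on medium and short hydroxyacyl-CoAs. It read 1444, 1847 and 1853 in overexpressors, against 1584, 1935 and 2139 in their controls, with overlapping groups (-0.13, SE 0.14, 95% interval -0.44 to 0.17, limma adjusted p = 0.928). Knockouts read 1964, 2061 and 2199.9, against 1741, 2006 and 1696 in their controls (0.19, SE 0.14, 95% interval -0.11 to 0.50, adjusted p = 1). Knockout control 2 was again the control that reached into the range of the knockouts.

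Acaa2, the mitochondrial thiolase that cleaves acetyl-CoA from the chain, read 1309, 1949 and 1496 in overexpressors, against 1821, 1962 and 2138 in their controls. Overexpressors 1 and 3 lay below all controls and overexpressor 2 among them (-0.33, SE 0.19, 95% interval -0.74 to 0.09, limma adjusted p = 0.913). Knockouts read 2618, 2799 and 3147, against 2205, 3151 and 1842 in their controls. The controls spanned more than the knockouts, with a mean of 2855 ± 269 in knockouts and 2399 ± 676 in their controls (SD, n = 3 each). The change was 0.28 (SE 0.19, adjusted p = 1), with 0.11 without knockout control 3 and 0.49 without knockout control 2.

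On the peroxisomal side stood Acaa1b, a thiolase, and Ehhadh, the bifunctional enzyme that hydrates and then oxidises the chain. Acaa1b read 603, 664 and 762 in overexpressors, against 771, 1011 and 885 in their controls. It was the one tested gene of the 7 whose overexpressors all lay below their controls, by a margin of 762 to 771, and 6.48% of all tested probe sets did the same. The means were 676 ± 80.3 and 889 ± 120.2 (SD, n = 3 each), with a change of -0.37 (SE 0.22, 95% interval -0.84 to 0.10, limma adjusted p = 0.913). Knockouts read 789.7, 1114 and 1518, against 739, 1077 and 747 in their controls. Knockout 3 was the highest and the groups overlapped (0.38, SE 0.22, 95% interval -0.09 to 0.84, adjusted p = 1), with 0.15 without knockout 3 and 0.61 without knockout 1. A dimmer, untested Acaa1b probe set read 137, 162 and 206 in knockouts, against 101, 150.3 and 112 in their controls. Acaa1a, a near-identical gene, has its own probe set (-0.38 in overexpressors and 0.26 in knockouts), and which of the pair each probe set reads is uncertain.

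Ehhadh was too dim to test. It read 21.9, 44.1 and 28.9 in overexpressors, against 33.8, 56.5 and 39.5 in their controls. Knockouts read 36.3, 61.9 and 72.5, against 32.0, 48.7 and 35.5 in theirs, with overlapping groups in both lines.

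**Figure D2:**
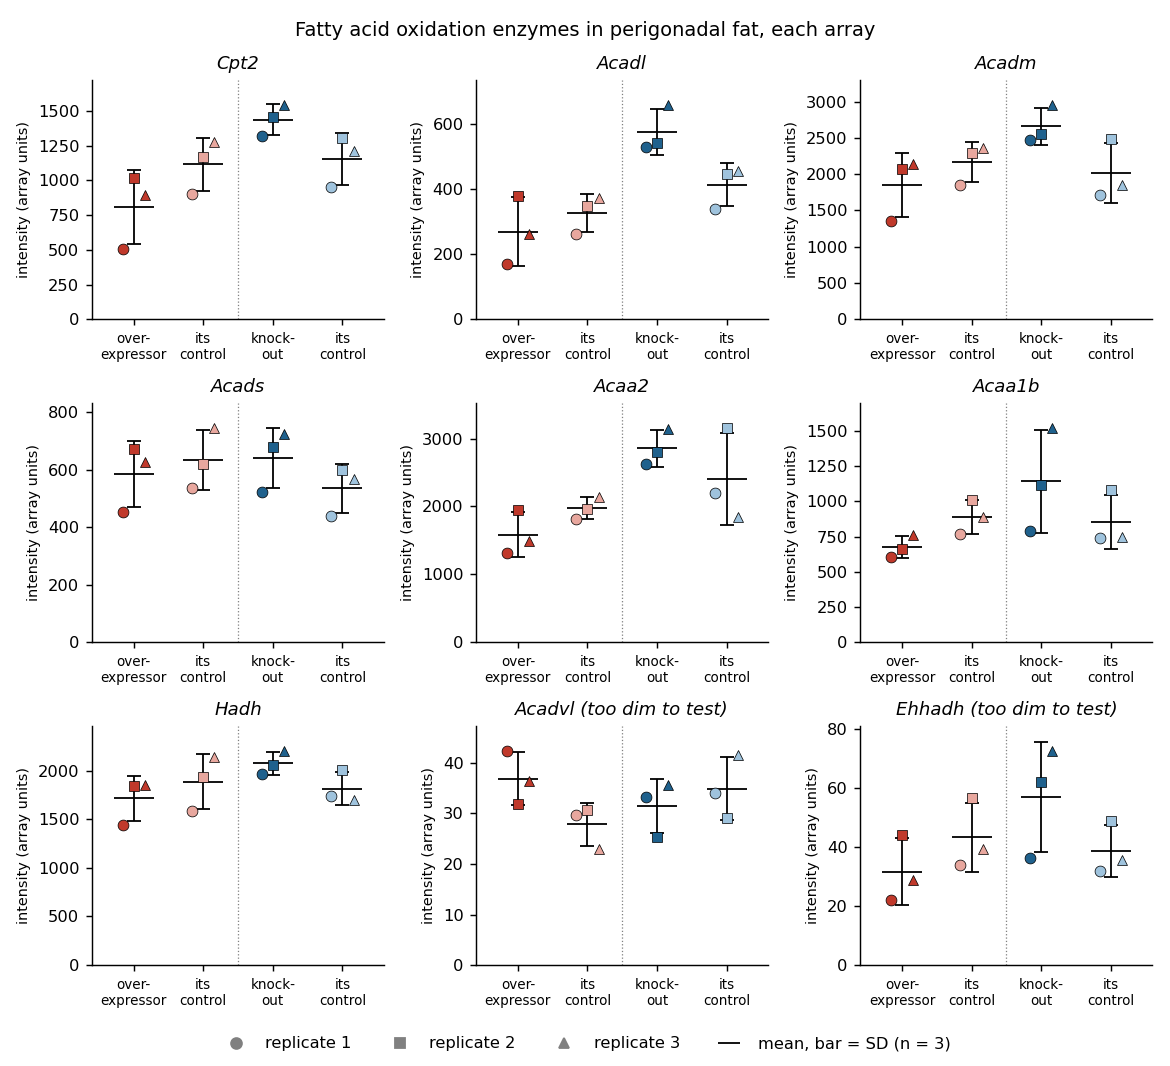
Intensity in array units (y axis, from 0) of the 9 enzyme genes on each of the 12 arrays, by group on the x axis; circles, squares and triangles are replicates 1, 2 and 3, horizontal lines are means and bars SD (n = 3), and the dotted line parts the lines, whose levels are not compared. In most panels overexpressor 1 is the lowest point of its line, and for Cpt2 and Acadl all 3 knockouts lie above their controls.

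The difference between the effects was also tested, as knockout minus control less overexpressor minus control, so that levels were not compared between lines. It was 0.80 for Cpt2 (SE 0.32), 0.75 for Acaa1b (SE 0.31), 0.74 for Acadl (SE 0.31), 0.65 for Acadm (SE 0.27), 0.61 for Acaa2 (SE 0.27), 0.36 for Acads (SE 0.26) and 0.33 for Hadh (SE 0.20). No gene passed over all probe sets (limma adjusted p = 0.893 for each of the 7 genes), where 0.161% of probe sets were called. The unadjusted p was under 0.05 for 5 of the 7, Cpt2 (0.0250), Acaa1b (0.0299), Acadm (0.0314), Acadl (0.0355) and Acaa2 (0.0434), against 4.31% of all tested probe sets with a positive difference at that level. Estimates of the difference were positive for 72.5% of all tested probe sets. The genes and tests were chosen with earlier results known, and the genes share the same 12 arrays. These 5 values therefore do not add up to 5 separate observations. Without overexpressor 1 the difference was 0.67 for Acaa1b, 0.52 for Cpt2, 0.48 for Acadl, 0.48 for Acaa2, 0.44 for Acadm, 0.21 for Hadh and 0.20 for Acads. An unadjusted p under 0.05 was then left for 1 of the 7, as without overexpressor control 3. It was left for 0 without overexpressor control 2, knockout 3 or knockout control 1, for 2 without knockout control 3, for 3 to 5 without each of the other arrays but one, and for 6 without that one, overexpressor control 1. The count was 3 with array medians subtracted and 4 with quantile normalization.

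The 9 genes tended to be low or high on the same arrays. Counts and medians over the 9 genes include the 2 dim ones, while the values set beside them cover tested probe sets only. Overexpressor 1 held the lowest value of its line for 8 of the 9 genes, the 7 tested ones and Ehhadh, while 48.4% of all tested probe sets were lowest there. Relative to the mean of the line, its median over the 9 genes was -0.38 on the log2 scale, against -0.15 over all tested probe sets. Overexpressors 2 and 3 stood at 0.13 and -0.02, and their controls 1, 2 and 3 at -0.06, 0.21 and 0.26. In the knockout line, knockout 3 held the highest value for 7 of the 9 genes, against 37.4% of tested probe sets. Knockouts 1, 2 and 3 stood at 0.02, 0.15 and 0.30, and their controls at -0.37, 0.04 and -0.19. Control 1 held the lowest value for 6 of the 9 genes, against 7.04% of tested probe sets, and its median over all tested probe sets was 0.03. Control 3 held the lowest value for 2 of the 9 genes, against 42.9% of tested probe sets, and its median over all tested probe sets was -0.13. The part of array brightness in the enzyme estimates was not tested.

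**Figure D3:**
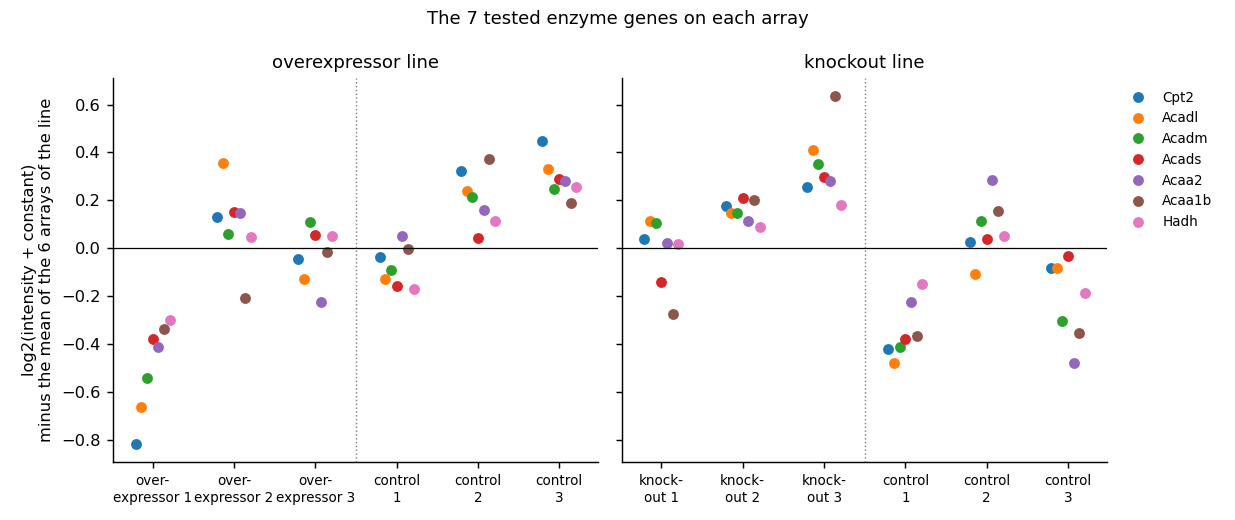
Log2(intensity + constant) minus the mean of the 6 arrays of the same line (y axis) for the 7 tested enzyme genes, 1 colour per gene, on each array (x axis), with mutants left of the dotted line and controls right of it. All 7 genes lie below 0 on overexpressor 1 and on knockout controls 1 and 3, all lie above 0 on overexpressor controls 2 and 3, and all lie above 0 on knockouts 2 and 3.

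Other genes of the pathway were read by lists. Of 7 genes of carnitine transport and exchange 4 were named on the array and 3 tested, none of them called in either comparison. Slc25a20, the carnitine-acylcarnitine carrier that stands just before Cpt2 in the route, had estimates of 0.0036 in overexpressors and 0.0006 in knockouts (SE 0.12 in both). Its values were 982, 1031 and 1077 in overexpressors, against 867, 1115 and 1118 in their controls, and 1217, 1354 and 1374 in knockouts, against 1288, 1382 and 1271 in theirs. Cpt1a, the outer membrane transferase that limits entry, was at -0.22 and 0.11. Crat, which exchanges acetyl groups with carnitine, was at -0.24 and 0.32.

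Of 15 further genes of mitochondrial oxidation 10 were named and 9 tested, with 8 estimates below 0 and 1 above it in overexpressors and all 9 above 0 in knockouts. Limma called 0 of them in either comparison, and none had an unadjusted p under 0.05. The medians over the 10 named genes were -0.24 and 0.19, beside -0.25 and 0.30 for the 9 enzyme genes. Etfdh, which passes electrons from the dehydrogenases to ubiquinone, was at -0.35 and 0.48, and Decr1, which prepares unsaturated chains, at -0.28 and 0.45. Echs1, the short-chain hydratase, was at -0.38 and 0.24. Hadhb, the thiolase subunit of the trifunctional protein, was at 0.02 in overexpressors and 0.34 in knockouts.

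Of 16 further peroxisomal genes 9 were named and 8 tested. The estimates were above 0 for 4 and below 0 for 4 in overexpressors and above 0 for all 8 in knockouts, with 0 calls by limma and 0 unadjusted p-values under 0.05 in either. The medians over the 9 named genes were -0.13 and 0.25. Abcd2, a peroxisomal importer of very long chains, had the largest knockout estimate of the list (0.60, unadjusted p = 0.0554) and was at 0.04 in overexpressors.

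Of 16 regulators and partners of the pathway 10 were named and 7 tested, with medians over the 7 of -0.04 and 0.13, medians over the 10 of -0.03 and 0.06, and 0 calls by limma, none with an unadjusted p under 0.05. Ppara, the nuclear receptor that drives oxidation genes in liver, was at -0.06 and 0.29, and Pparg, its adipocyte relative, at -0.07 and 0.32. Esrra was at -0.14 and 0.07, and Pdk4, the kinase that shuts off pyruvate dehydrogenase, at 0.14 and 0.13. Ppargc1a, a coactivator of mitochondrial genes, was too dim to test.

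Most genes of mitochondrial proteins outside fatty acid oxidation had estimates of the same signs as the enzyme genes. Of 20 listed genes of the respiratory chain, citrate synthase and other mitochondrial proteins, 18 were named and 17 tested. In overexpressors 15 of the 17 were below 0, against 70.3% of all tested probe sets, with a median over the 18 of -0.12. In knockouts 16 of the 17 were above 0, against 63% of all tested probe sets, with a median of 0.18. The exceptions were Cycs (0.17) and Ndufs1 (0.06) in overexpressors and Cox6c (-0.01) in knockouts. Limma called 0 of the 17, and none of the 17 had an unadjusted p under 0.05. Their summed intensity was 18818, 29127 and 27269 in overexpressors, against 26095, 25593 and 29404 in their controls, so overexpressor 1 was low and the other arrays lay close together. It was 24083, 26160 and 29568 in knockouts, against 21892, 28907 and 20961 in their controls. The summed intensity of the 9 enzyme genes was 5901, 8671 and 8096 in overexpressors, against 7791, 9429 and 9974 in their controls. For knockouts it was 10288, 11286 and 12842, against 8195, 11153 and 8451 in their controls. Bulk tissue cannot tell fewer cells of a type from less RNA per cell.

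All 7 brown adipocyte markers of the list were named on the array and 6 were tested. Their summed intensity was 1102, 3055 and 2067 in overexpressors, against 1670, 2716 and 4577 in their controls. In the knockout line it was 5017, 3688 and 5197 in knockouts, against 1396, 4893 and 3740 in their controls. The lowest sum of each line was on overexpressor 1 and knockout control 1, the arrays with the lowest sums of the enzyme genes. The order of the other arrays differed: knockout 2 had an enzyme sum below that of knockout 3 only and, after control 1, the lowest brown sum. Ucp1, the uncoupling protein that defines brown fat, read 111, 509 and 367 in overexpressors, against 241, 657 and 1226 in their controls (-0.97, SE 0.86, limma adjusted p = 0.918). In knockouts it read 1452, 711 and 1159, against 50.4, 1232 and 808 in their controls (1.28, SE 0.86, adjusted p = 1). Cox8b, a cytochrome oxidase subunit of brown fat and muscle, was at -0.89 and 0.55, Cidea at -0.27 and 0.87, and Cox7a1 at -0.31 and 0.38. Dio2, the deiodinase that activates thyroid hormone, had the opposite signs (0.05 and -0.08). It read 247, 246 and 252 in overexpressors, all above the 236, 237 and 241 of their controls. Among the 5707 named genes tested, 126 did the same, and Dio2 stayed between 225 and 264 on all 12 arrays. The medians over the 7 markers were -0.27 and 0.38, with 0 calls by limma and no unadjusted p under 0.05. The part of brown adipocytes in the enzyme estimates was not tested.

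**Figure D4:**
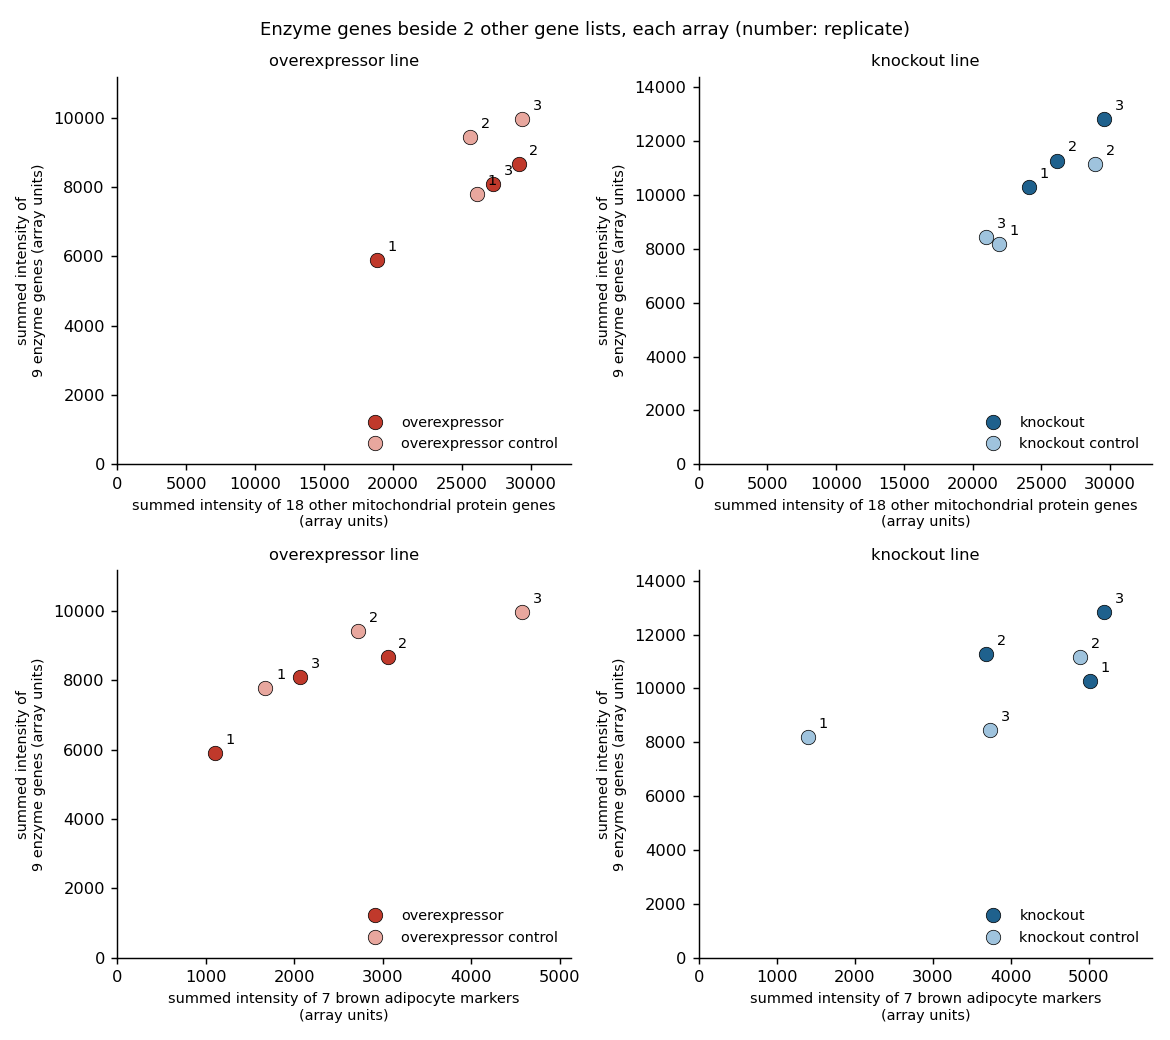
Summed intensity of the 9 enzyme genes (y axis, array units) against that of 18 other mitochondrial protein genes (top) or 7 brown adipocyte markers (bottom), 1 point per array, with mutants in dark and controls in light colour, the overexpressor line left and the knockout line right, and numbers giving replicates. Overexpressor 1 has the lowest sum on both axes in its line; knockout control 1 has the lowest enzyme and brown marker sums of its line, 8195 and 1396.

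Markers of other cell types were read in the same way. The 7 skeletal muscle markers summed to 1129, 2192 and 3735 in overexpressors, against 1779, 2519 and 2790.1 in their controls. In the knockout line they summed to 2615, 2094 and 6777 in knockouts, against 2380.0, 3896 and 2153 in their controls. The highest sum was on knockout 3, where Acta1 alone read 3781. Acta1, Tnnt3, Mylpf and the dim Tnni2 were highest of their line on that array. Ckm was lowest of its line there (69.65), and Myh4 (333) and Mb (686) lay below knockout 1 (373 and 837). Fibroblast markers had 5 of 6 genes below their controls at an unadjusted p under 0.05 in overexpressors (median -0.49), as 3.53% of all tested probe sets were, and none in knockouts (median -0.12). These were Dpt (-0.77), Col1a2 (-0.62), Col1a1 (-0.58), Pdgfra (-0.40) and Col3a1 (-0.37), genes of matrix proteins and, for Pdgfra, a growth factor receptor. The 6 fibroblast markers summed to 14278, 15532 and 17817 in overexpressors, against 24293, 21522 and 16953 in their controls. Control 3 thus lay below overexpressor 3, and the sums overlapped. The 7 macrophage markers had medians of -0.27 and 0.06. They summed to 3530, 3484 and 3833 in overexpressors, against 6609, 4596 and 3153.5 in their controls, so control 3 lay below every overexpressor. The 6 endothelial markers had medians of -0.27 and 0.10, with Tie1, a receptor of vessel walls, lower in overexpressors at an unadjusted level (-0.37, limma adjusted p = 0.913). In none of these 4 lists was a gene called by limma. Adipocyte markers had medians of -0.03 and 0.17, smaller in both comparisons than those of the enzyme genes, and their sum on overexpressor 1, 22958, was the lowest of its line. Of the adipocyte markers, Cidec, a lipid droplet protein, had the smallest p in overexpressors (-0.77, limma adjusted p = 0.307), where it read 1139, 1728 and 1792, against 2243, 2856 and 2834 in their controls. Lep, the gene of leptin, was higher in knockouts at an unadjusted p under 0.05 (0.50, limma adjusted p = 1), at 2649, 3414 and 2791, against 2798, 1518 and 2052 in their controls. Mesothelial, liver and ovarian steroidogenic markers had 0 genes called by limma in either comparison, with Alb of liver lower in overexpressors at an unadjusted level (-0.52, adjusted p = 0.456). Among lymphocyte markers Ighm, which encodes the IgM heavy chain of B cells, was higher in knockouts (1.40, limma adjusted p = 0.0160). It read 1636, 2356 and 1742 in knockouts, against 842, 602 and 658 in their controls. In this comparison 0.121% of all tested probe sets were called. With the replicate block the count of calls was 0, so Ighm was not called there. The median over the 5 lymphocyte markers was -0.19 in overexpressors and -0.08 in knockouts, where Cd79b (-0.11), Cd3e (-0.08) and Cd3g (-0.12) were below 0 and Cd79a (0.15) above it. The part of these cell types in the enzyme estimates was not tested.

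The genes whose pattern was most like the mean of the 9 enzyme genes were ranked among 5700 other tested genes by the smaller of the 2 Pearson correlations, each over the 6 arrays of a line. They were Crat (0.99 in the overexpressor line and 0.98 in the knockout line), Bckdha, a subunit of the branched-chain ketoacid dehydrogenase (0.99 and 0.98), and Coq9, of coenzyme Q synthesis (0.97 and 0.98). Decr1 (0.96 and 0.97) and Hibadh, of valine breakdown (0.99 and 0.96), followed. These points share arrays and their overall brightness, and the correlations describe 6 arrays each.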

How the data were processed

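Per the labels' protocols, RNA was purified on Qiagen columns and a core facility made the biotin-labelled samples and ran the arrays. The authors deposited linear intensities, a value for each probe set on each array. How they were summarised, scaled and corrected for background is not given in the sources used. Groups came from the sample titles. The platform annotation gave 1 symbol to 10833 of 12422 probe sets, and 10817 of these matched RefSeq by gene ID. The constant 36.92 added before log2 is the 10th percentile of the table, and probe sets in the lowest 40% by mean intensity were not tested. Where a gene had several probe sets, the brightest by mean stands for it. Limma 3.58.1 (R 4.3.3) fitted the group means (lmFit, eBayes with a trend on intensity, 8 residual degrees of freedom and 4.27 prior ones). The procedure was tested on simulated data with independent noise on each array. Those data held no brightness shared by the probe sets of an array, so that test does not cover it. Exact permutation tests were not used, since 3 arrays against 3 allow no two-sided p under 0.1. Replicate arrays differed by a root mean square of at least 0.19 (log2), so each counted as 1 replicate. The number of arrays limits the precision. The enzyme genes, gene lists and tests were chosen with earlier results of these data known. The naming rule takes the 9 genes with all their probe sets, genes of the pathway lists with an unadjusted p under 0.05 (there were none), genes showing the other direction, and the 5 genes most alike in pattern. Other list genes and all markers were named for their role, p or estimate after values were seen. Alternatives changed the constant, the filter, the normalization, the spread model, the arrays used and the replicate block. Figures used matplotlib 3.10.9.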

Additional observations from a re-analysis of the deposited data

How the results depend on the processing

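No enzyme gene was called by limma under any alternative fitted: the smallest adjusted p was 0.599 in overexpressors, 0.841 in knockouts and 0.370 for the difference of effects. Counts of calls over all probe sets were 6, 9 and 12. The first was 11 with quantile normalization (6 higher, 5 lower), 11 with array medians subtracted and 1 on the line's own 6 arrays. The last was 1 without a filter on dim probe sets and 1 without overexpressor 1 and knockout control 3, the 2 dimmest arrays, a setting chosen after seeing the data. With the replicate block the counts were 5, 0 and 1. Same-numbered arrays did not deviate together (correlations of -0.09 to 0.02 in the overexpressor line and -0.35 to -0.04 in the knockout line). No array correlated best with its own number, and the largest correlation was 0.41, for knockout 1 with knockout control 3. With 3 arrays a group these values cannot show whether the mice were paired. Leaving out 1 array gave 3 (without overexpressor control 2) to 21 (without overexpressor control 3) calls in overexpressors, 6 to 11 in knockouts and 1 (without overexpressor 3 or knockout 3) to 13 for the difference. The median over the 9 genes was -0.3551 to -0.0383 in overexpressors, the last without overexpressor 1 or without the 2 dimmest arrays, and 0.18 to 0.41 in knockouts. It kept its sign under the other alternatives. Estimates near 0 changed sign for Acads only. Leaving out 1 array gave Acads -0.2241 to 0.0454 in overexpressors, and its other probe set -0.1183 to 0.0341 in overexpressors, -0.1066 to 0.0103 in knockouts and -0.0975 to 0.0549 for the difference. In overexpressors Acads was at 0.0454 without overexpressor 1 and without the 2 dimmest arrays, and at 0.0007 without overexpressor control 3. Its other probe set was at 0.0309 with quantile normalization, 0.0249 with array medians subtracted and 0.0341 without overexpressor control 3, at 0.0103 in knockouts without knockout 3, and at 0.0549 without overexpressor control 2 and 0.0434 without knockout 3 for the difference. The cause was not tested.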
